A study of Mus musculus with 16 samples.

Results

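Respiratory chain and ATP synthase genes were followed in cultured mouse CD8 T cells with and without Batf3, at 48 h and 72 h of stimulation. The members were all protein-coding rows of the count table whose symbols fit the naming of these subunits: the mitochondrial protein genes of the mt-Nd, mt-Cytb, mt-Co and mt-Atp families, and the nuclear Nduf, Sdh, Uqcr, Cox and Atp5 families. They numbered 108 of 55335 identifiers, of which 13 lie in mitochondrial DNA and 95 in the nucleus. By complex, the nuclear members fell into 37 for complex I, 4 for complex II, 8 for complex III, 20 for complex IV and 18 for ATP synthase, and 8 further members were Ndufaf assembly factors of complex I, which are not subunits. Mitochondrial DNA contributed 7 members to complex I, 1 to complex III, 3 to complex IV and 2 to ATP synthase. Cyc1, a cytochrome subunit of complex III, is not reached by the naming and was kept apart.

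CD8 T cells were enriched from the spleens of C57BL/6 mice that were wild type (wt) or lacked Batf3 (Batf3 ko), a transcription factor with a leucine zipper that pairs with JUN proteins. All 4 groups were grown with IL-15 at 50 ng/ml, a cytokine that sustains CD8 memory cells, on plate-bound antibody to CD3e with antibody to CD28, both at 1 µg/ml, which stand in for antigen and costimulation. Wild-type and knockout cells were each taken at 48 h and at 72 h, with 4 libraries per group. The series text calls the 4 libraries technical replicates, and whether they came from separate cultures or mice is not stated. The p-values rest on variation among libraries and cannot be taken to cover variation among mice. The cells were enriched and not described as sorted, and no unstimulated cells were among the groups.

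The respiratory chain passes electrons from NADH at complex I and from succinate at complex II through complexes III and IV to oxygen, and complexes I, III and IV pump protons out of the mitochondrial matrix. ATP synthase lets the protons back in through a ring of c subunits and makes ATP. Complex II is built from nuclear genes only, whereas the core membrane subunits of the other complexes are read from mitochondrial DNA as long transcripts that are then cut into single messenger RNAs, so each of these complexes joins the products of 2 genomes. Activated T cells enlarge their mitochondria as they begin to divide, and CD8 memory cells are known for a high respiratory reserve.

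Promoters of the 3 genes for subunit c, the ring of ATP synthase, are shown because these genes encode the same mature protein but moved in opposite directions with time. Each sequence is the 250 bases before the RefSeq start, 5′ to 3′ on the gene's strand in build GRCm38.p6, with Atp5g1 at chr11:96075632-96075881, Atp5g2 at chr15:102671048-102671297, Atp5g3 at chr2:73911327-73911576 and Atp5j at chr16:84834977-84835226, all on the minus strand. Atp5j, the coupling factor 6 subunit, is shown as a promoter that holds all 3 motifs searched for factors of mitochondrial genes; a second RefSeq promoter of Atp5j, at chr16:84835576-84835875, holds none of them. Capitals mark matches to CGCATGCG (NRF1), CCGGAAG (ETS family) or AAGATGGC (YY1) on either strand.
Atp5g1: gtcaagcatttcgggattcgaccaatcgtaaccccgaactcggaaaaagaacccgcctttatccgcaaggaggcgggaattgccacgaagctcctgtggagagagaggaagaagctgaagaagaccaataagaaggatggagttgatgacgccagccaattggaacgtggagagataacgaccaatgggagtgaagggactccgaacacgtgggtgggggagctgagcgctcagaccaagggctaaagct
Atp5g2: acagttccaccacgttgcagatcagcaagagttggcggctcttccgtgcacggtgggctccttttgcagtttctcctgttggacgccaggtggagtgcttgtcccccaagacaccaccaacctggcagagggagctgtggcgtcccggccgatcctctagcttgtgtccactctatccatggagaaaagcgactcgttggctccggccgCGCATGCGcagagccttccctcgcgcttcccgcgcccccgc
Atp5g3: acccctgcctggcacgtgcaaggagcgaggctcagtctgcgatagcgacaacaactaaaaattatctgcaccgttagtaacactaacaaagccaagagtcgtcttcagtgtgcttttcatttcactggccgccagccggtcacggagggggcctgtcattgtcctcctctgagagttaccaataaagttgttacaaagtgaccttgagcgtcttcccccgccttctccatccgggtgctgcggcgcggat
Atp5j: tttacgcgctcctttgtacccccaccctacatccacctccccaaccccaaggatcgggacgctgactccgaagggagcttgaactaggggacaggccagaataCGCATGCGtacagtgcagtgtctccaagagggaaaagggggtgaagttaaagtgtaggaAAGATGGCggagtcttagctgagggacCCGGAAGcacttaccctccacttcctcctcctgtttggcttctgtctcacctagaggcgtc
Atp5g2 held the NRF1 letters with the first base 41 bases before the start, and the printed stretches of Atp5g1 and Atp5g3 held none of the 3 motifs. In Atp5j the NRF1 letters began 147, the YY1 letters 88 and the ETS letters 61 bases before the start. The gene models used for lengths place Atp5g2 at chr15:102662864-102672352 and Atp5j at chr16:84827866-84835625, so both of these stretches lie inside the longer models.

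Over windows of 300 bases (250 before to 50 after the start), RefSeq promoters were matched for 77 of the 95 nuclear members. NRF1 letters were found in 11 of the 77 members (14.29%), against 2.767% of 17492 protein-coding genes. YY1 letters were also found in 11 members (14.29%, against 3.567%), ETS letters in 19 (24.68%, against 12.95%), and the TATA letters TATAAA in 8 (10.39%, against 14.8%). A match is a description of the sequence and does not show that a factor binds. Among matched nuclear members tested, the NRF1 letters stood in 1 of 11 that rose with time in wild-type cells, 6 of 41 that fell and 4 of 23 that passed in neither direction.

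Library totals ran from 29375818 to 39241169 counts, and the gene-wise spread between libraries of a group had a typical coefficient of variation of 9.68%. Batf3 reads checked the labels: 28.73 to 87.69 CPM (counts of a gene scaled to a common library total) in wild-type libraries and 0 to 0.3663 CPM in knockout libraries. Cd8a had group means of 285.7 to 345.1 CPM, and the sum of 8 CD8 T cell genes ran from 2696 to 3376 CPM. The 3 CD4 T cell genes summed to 20.7 CPM in wild-type and 25.2 CPM in knockout cells at 48 h and to 52.1 and 51.2 CPM at 72 h, nearly all of it Zbtb7b, with Cd4 at 0.106 to 0.772 CPM. The B cell list summed to 252.6, 299.0, 263.4 and 322.6 CPM in the same order, higher in knockout cells at both times, of which Ighm made up 247.4, 293.5, 255.5 and 315.1 CPM; Ms4a1 and Pax5 stayed at or below 0.0745 CPM. The macrophage gene Adgre1 and neutrophil gene S100a8 were at 0 in all 16 libraries. The summed CPM of 8 myeloid genes, most of it Fcgr3, was 0.303 in wild-type and 3.65 in knockout cells at 48 h, and 1.04 and 9.54 at 72 h, and that of 6 NK and gamma-delta T cell genes was 5.34, 7.49, 12.6 and 17.4 in the same order; their part in the results was not tested. Knockout replicate 4 at 48 h and wild-type replicate 4 at 72 h stood farthest from their groups, at 0.234 and 0.218 root mean square log2 units against 0.109 to 0.162 in the other libraries, so counts are also given without both. In such bulk samples, fewer cells of a type and less RNA per cell cannot be told apart.

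Of the 108 members, 103 had enough reads to be tested, 99 of them with a mean of at least 10 CPM. Cox7b2, Cox8b, Cox8c and a second identifier named Atp5o had no reads in the 16 libraries, and Ndufa4l2 had group means of 0.0257 to 0.195 CPM. The 13 mitochondrial members together took, as mean ± SD over 4 libraries, 36480 ± 2307 CPM in wild-type cells at 48 h, 39660 ± 3591 in knockout cells at 48 h, 30740 ± 3517 in wild-type cells at 72 h and 30410 ± 2567 in knockout cells at 72 h. The 95 nuclear members together took 15090 ± 467, 15720 ± 695, 13010 ± 459 and 13100 ± 338 CPM in the same order. The nuclear sum was lower in every 72 h library than in any 48 h library of the same genotype, as was the mitochondrial sum in knockout cells; in wild-type cells replicate 4 at 72 h, at 35940 CPM of mitochondrial members, reached into the 48 h range. The genotypes overlapped at each time for both sums.

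Per kilobase of exon, mt-Co1, the catalytic subunit of complex IV, stood at 10140 RPKM (CPM per kilobase of exon) in wild-type cells at 48 h, far above any nuclear member. The highest nuclear members per kilobase at that point were Ndufc2 of complex I (186 RPKM), Sdhd, a membrane anchor of complex II (171), Uqcr10 of complex III (312), Cox8a of complex IV (450) and Atp5b, the catalytic beta subunit of ATP synthase (532). At 72 h in wild-type cells the same 5 stood at 148, 139, 232, 452 and 356 RPKM, and in knockout cells at 150, 140, 224, 494 and 315 RPKM. Cox8a was the one of these that was no lower at 72 h.

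Most calls came with time. From 48 h to 72 h in wild-type cells, 10 of 13 mitochondrial members fell and none rose, with a median log2 fold change of -0.59, and 46 of 90 nuclear members fell and 12 rose, with a median of -0.19. Of all 15197 genes tested, 33.6% rose and 29.9% fell (63.6% in either direction), with a median of 0.05. In knockout cells, where 34.4% of all genes rose and 33.6% fell (68.0% in either direction, median 0.03), 12 mitochondrial members fell and 1 rose (median -0.84), and 50 nuclear members fell and 18 rose (median -0.19). Of the nuclear members, 43 fell in both genotypes and 12 rose in both, and the share of all genes doing so was not counted. The 12 were Ndufa1, Ndufa6, Ndufa7, Ndufa13 and Ndufv3 of complex I, Uqcrh of complex III, Cox4i2, Cox6b2, Cox7a1 and Cox7a2l of complex IV, Atp5g2 of ATP synthase and the assembly factor Ndufaf3. Calls throughout are edgeR quasi-likelihood tests with Benjamini-Hochberg adjusted p below 0.05 over all genes tested. Without both libraries that stand apart, 65 members fell and 11 rose in wild-type cells (30.7% and 33.7% of all genes) and 64 fell and 17 rose in knockout cells (33.1% and 35.1%).

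**Figure D1:**
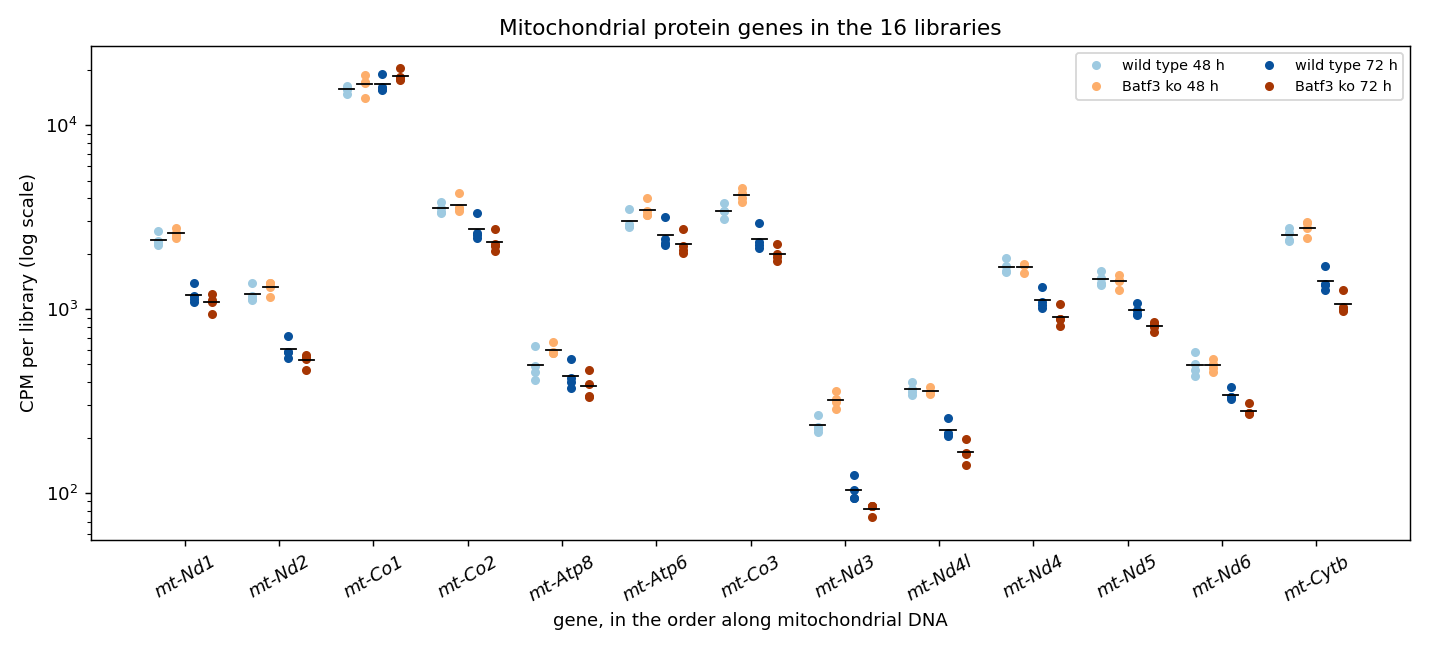
CPM of the 13 mitochondrial protein genes in each of the 4 groups, on a log axis, with 1 point per library and a bar at the group mean. mt-Co1 stays near its 48 h level at 72 h in wild-type cells, whereas the complex I genes, mt-Cytb, mt-Co2 and mt-Co3 are lower at 72 h in both genotypes.

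The size of the fall varied among mitochondrial genes. The largest falls in wild-type cells were in the complex I genes mt-Nd1, mt-Nd2 and mt-Nd3, membrane subunits of the proton-pumping arm, with log2 fold changes in wild-type cells of -1.02 (SE 0.09, adjusted p = 2.6e-10), -1.01 (SE 0.09, adjusted p = 2.1e-09) and -1.18 (SE 0.10, adjusted p = 3.4e-10). mt-Cytb, the cytochrome b of complex III, fell by 0.84 on the log2 scale in wild-type cells and by 1.31 in knockout cells. All 7 complex I genes of mitochondrial DNA fell in both genotypes. The remaining 4, mt-Nd4, mt-Nd4l, mt-Nd5 and mt-Nd6, changed by -0.56 to -0.75 in wild-type cells and by -0.75 to -1.04 in knockout cells.

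mt-Co1 did not fall. Its wild-type libraries held 14730, 16410, 15770 and 15730 CPM at 48 h and 15560, 16180, 15810 and 19040 CPM at 72 h. Knockout libraries held 18820, 17270, 16940 and 14070 CPM at 48 h and 17870, 18270, 17590 and 20370 CPM at 72 h. The groups overlap across time in both genotypes, and the log2 fold change with time was 0.06 (SE 0.09, adjusted p = 0.55) in wild-type cells and 0.20 (SE 0.09, adjusted p = 0.048) in knockout cells. The knockout call was narrow and was lost with column-sum scaling (0.14, adjusted p = 0.102), median-ratio scaling (adjusted p = 0.0601) and DESeq2 (adjusted p = 0.0546). The other 12 mitochondrial genes together went from 20820 ± 1706 to 14090 ± 1900 CPM in wild-type cells and from 22880 ± 1682 to 11890 ± 1313 CPM in knockout cells (mean ± SD, n = 4). mt-Co1 therefore made up 43.0% ± 1.22 of mitochondrial member counts in wild-type cells and 42.2% ± 1.52 in knockout cells at 48 h, but 54.2% ± 0.876 and 61.0% ± 1.03 at 72 h. The 72 h shares ran from 52.98% to 55.03% in wild-type and from 59.71% to 62.2% in knockout libraries, with no overlap between genotypes there or between times.

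The complex IV partners mt-Co2 and mt-Co3 fell in both genotypes, mt-Co2 by 0.40 and 0.61 and mt-Co3 by 0.53 and 1.00 on the log2 scale in wild-type and knockout cells. mt-Atp6 and mt-Atp8, membrane subunits of ATP synthase whose gene models overlap by 43 bases, passed in knockout cells (log2 fold changes of -0.56 and -0.60) and not in wild-type cells (-0.28, adjusted p = 0.053, and -0.22, adjusted p = 0.17). No difference in time course between the genotypes passed for either (interaction adjusted p = 0.37 and 0.29).

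Nuclear members of complex I fell in 18 of 37 cases in wild-type cells and rose in 5, with a median of -0.13. Ndufa5, an accessory subunit of the matrix arm, fell most among well-expressed nuclear subunits of the complex. Wild-type libraries went from 61.1, 57.7, 67.2 and 63.1 CPM to 24.7, 26.3, 29.9 and 38.5 CPM. Knockout libraries went from 81.0, 78.5, 67.4 and 58.7 CPM to 25.2, 26.9, 31.2 and 30.4 CPM. Neither genotype overlapped between times, and the log2 fold changes were -1.08 (SE 0.13) and -1.27 (SE 0.13). In the other direction, Ndufv3, a small subunit of the NADH-oxidising module, rose from 59.3 ± 3.20 to 120.6 ± 10.2 CPM in wild-type cells and from 61.8 ± 4.55 to 140.3 ± 7.91 CPM in knockout cells (log2 fold changes of 1.00, adjusted p = 5.6e-12, and 1.25, adjusted p = 5.9e-14). Ndufa13 (GRIM-19), an accessory subunit also studied in cell death, rose by log2 fold changes of 0.67 and 0.79, and Ndufa6 by 0.45 and 0.70.

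Among assembly factors of complex I, 6 of 8 fell and 1 rose in each genotype. Ndufaf4, which acts early in building the complex, held 42.1, 42.2, 36.7 and 37.7 CPM in wild-type libraries at 48 h and 13.1, 12.5, 13.7 and 15.2 CPM at 72 h. Knockout libraries held 33.4, 29.3, 32.3 and 29.5 CPM and then 11.8, 11.2, 8.76 and 10.6 CPM. Times did not overlap in either genotype, and this was the largest fall among well-expressed nuclear members, at -1.57 (SE 0.09, adjusted p = 2.8e-13) and -1.49 (SE 0.09, adjusted p = 6.1e-13). Ndufaf2 fell by 0.80 on the log2 scale in both genotypes, while Ndufaf3 rose by log2 fold changes of 0.43 and 0.45.

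Complex II and complex III moved mainly down. Of the 4 complex II genes, 3 fell in wild-type cells and all 4 in knockout cells, including Sdha, the flavoprotein that oxidises succinate (-0.34 and -0.46), and Sdhd (-0.32 and -0.20). In complex III, 6 of 8 nuclear genes fell in each genotype, including the core subunit Uqcrc1 (-0.53 and -0.74), Uqcr10 (-0.46 and -0.37), Uqcr11 (-0.63 and -0.82) and the Rieske iron-sulphur protein Uqcrfs1 (-0.43 and -0.17). Uqcrh, the hinge protein, was the 1 that rose, with log2 fold changes of 0.24 (adjusted p = 0.038) and 0.40 (adjusted p = 0.0012).

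Complex IV was the mixed case, with 4 nuclear members higher and 3 lower of 16 tested in wild-type cells, and 5 higher and 4 lower in knockout cells. In wild-type libraries Cox7a2l (SCAF1), a relative of Cox7a2, held 178.4, 172.7, 179.1 and 182.2 CPM at 48 h. At 72 h it held 339.4, 373.6, 337.0 and 347.9 CPM there. Knockout libraries went from 221.4, 237.7, 206.3 and 203.1 CPM to 487.0, 462.0, 474.5 and 428.7 CPM. Every 72 h library lay above every 48 h library, with log2 fold changes of 0.95 (SE 0.07, adjusted p = 5.7e-12) and 1.16 (SE 0.07, adjusted p = 9.7e-14). Cox7a2l took 50.4% of the summed CPM of Cox7a2 and Cox7a2l at 48 h in wild-type cells and 64.6% at 72 h, and 49.7% and 67.9% in knockout cells. Ndufa4, counted here with complex IV, fell by 0.74 and 1.22 on the log2 scale.

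Isoforms of complex IV that are typical of other tissues were low. Cox6b2, known from testis, rose from means between 1.45 and 1.57 CPM at 48 h to 8.65 CPM in wild-type and 5.70 CPM in knockout cells at 72 h (log2 fold changes of 2.42 and 2.03). Cox4i2, an isoform linked to low oxygen, held 0, 0.0303, 0.0786 and 0 CPM in wild-type libraries at 48 h, at or under the level of 3 reads, and 0.359, 0.588, 0.340 and 0.448 CPM at 72 h. Knockout libraries at 72 h held 0.815, 1.182, 1.499 and 1.025 CPM, all above the wild-type ones. Cox7a1, the heart and muscle isoform, rose in both genotypes (0.85 and 1.39), and Cox6a2 in neither.

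In ATP synthase, 10 of 17 nuclear members fell and 1 rose in wild-type cells, and 10 fell and 4 rose in knockout cells. Atp5b fell from 2300, 2162, 2234 and 2317 CPM to 1559, 1518, 1538 and 1426 CPM in wild-type libraries. In knockout libraries it fell from 2172, 2138, 2197 and 2225 CPM to 1403, 1353, 1318 and 1271 CPM. The times were far apart and the log2 fold changes were -0.60 and -0.64 (SE 0.05 each). Atp5a1, the alpha subunit beside it in the catalytic head, fell by 0.49 and 0.65.

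**Figure D2:**
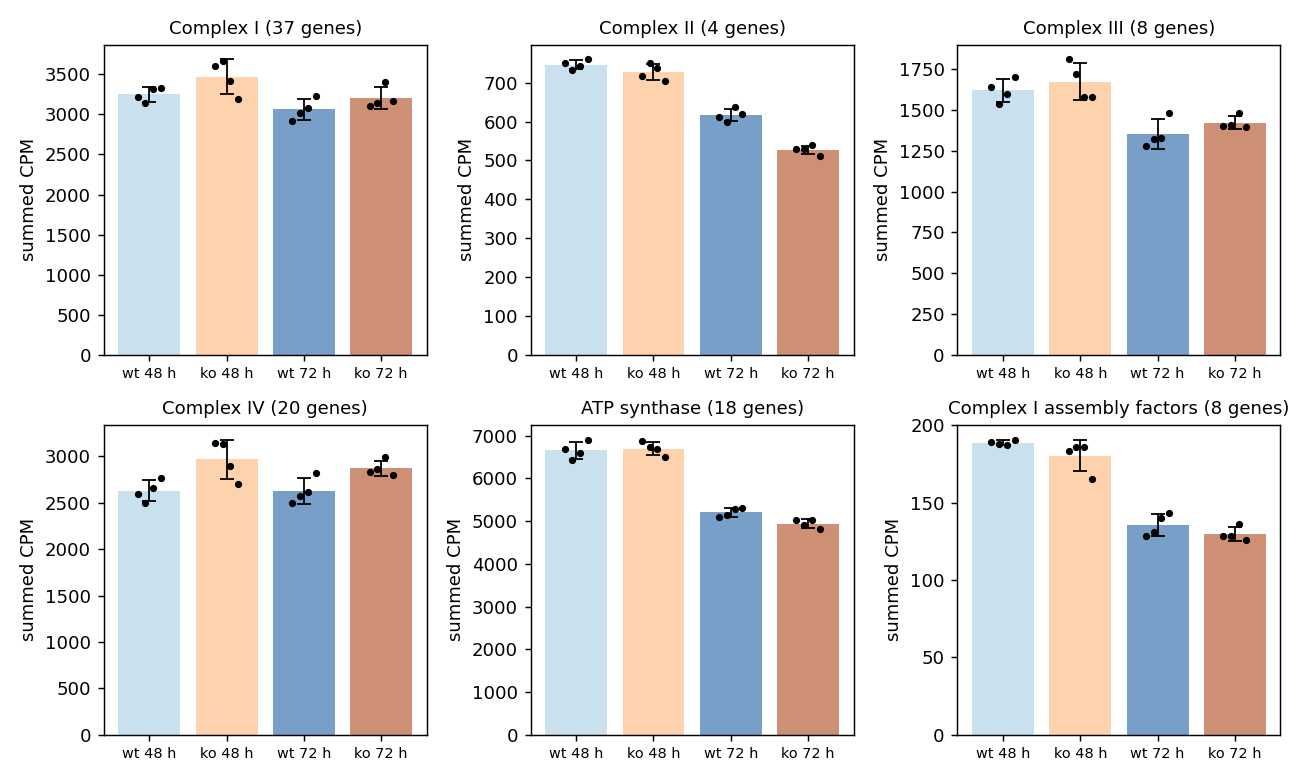
Summed CPM of the nuclear genes of each complex and of the complex I assembly factors, with bars for group means, error bars of 1 SD (n = 4) and a point per library. ATP synthase goes from 6653 to 5208 CPM in wild-type cells, and complex IV holds 2629 CPM at both times.

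The 3 genes of subunit c differed. Atp5g1 held 174.7, 169.8, 177.6 and 183.9 CPM in wild-type libraries at 48 h and 79.6, 76.9, 93.0 and 85.2 CPM at 72 h. Atp5g3 held 344.7, 344.0, 345.5 and 366.2 CPM and then 212.5, 208.1, 247.9 and 220.8 CPM. Atp5g2 held 221.2, 229.5, 241.0 and 250.6 CPM and then 300, 280.0, 328.7 and 355.4 CPM. Atp5g1 and Atp5g3 were lower and Atp5g2 higher at 72 h in every wild-type library, with no overlap between times. Their log2 fold changes were -1.10 (SE 0.06, adjusted p = 2.1e-13), -0.68 (SE 0.07, adjusted p = 3e-09) and 0.40 (SE 0.08, adjusted p = 0.00017).

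In knockout cells the same 3 genes changed by -1.19 (SE 0.06, adjusted p = 3.4e-14), -0.90 (SE 0.07, adjusted p = 1.4e-11) and 0.55 (SE 0.08, adjusted p = 2.4e-06). The summed CPM of the 3 fell from 762.2 to 622.0 in wild-type and from 773.6 to 612.7 in knockout cells, while the share of Atp5g2 went from 30.9% ± 0.738 to 50.8% ± 2.09 and from 33.8% ± 1.603 to 59.7% ± 2.93. Per kilobase of union exon length, Atp5g2 took 41.7% of the 3 in wild-type cells at 48 h and 61.3% at 72 h. In knockout cells it took 44.9% and 69.6%. That length joins all annotated exons, 4912 bases for Atp5g1, and need not match the message made. Only the Atp5g2 stretch printed above, of these 3, held the NRF1 letters. The pseudogenes Gm10175 and Gm10231 share 36.74% and 24.17% of the 50-base words of Atp5g2 and were counted at 49.47% to 52.6% of its CPM, with the same direction over time, so its reads and theirs are not fully told apart.

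**Figure D3:**
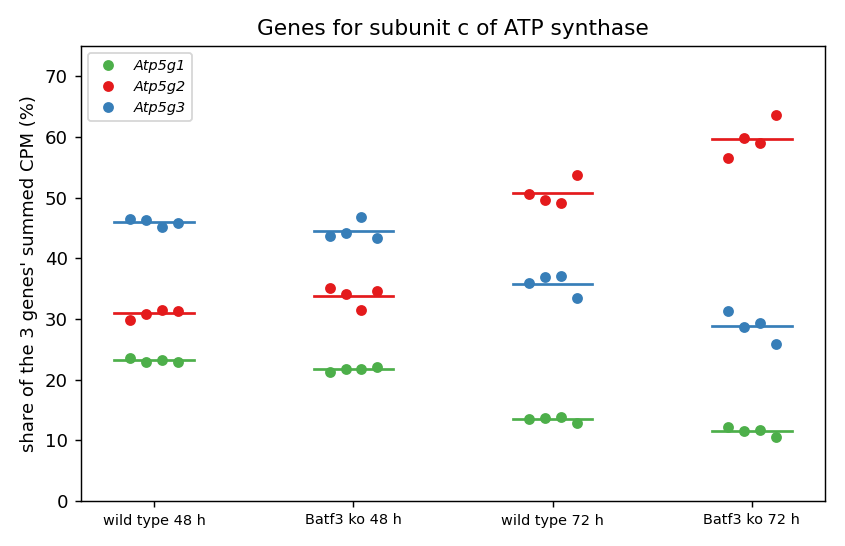
Percent of the summed CPM of Atp5g1, Atp5g2 and Atp5g3 taken by each gene, per library in the 4 groups. Atp5g2 holds about 31% of the 3 in wild-type cells at 48 h and about 60% in knockout cells at 72 h.

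Fewer members passed for genotype than for time. At 48 h, 13 of 90 nuclear members were higher and 3 lower in knockout cells, and 1 of 13 mitochondrial members was higher and none lower, where 4.41% of all genes were higher and 2.66% lower (7.07% in either direction). The median log2 fold change was 0.12 for nuclear and 0.15 for mitochondrial members and 0.01 for all genes. Without both libraries that stand apart 38 members were higher and 3 lower, against 8.99% and 7.63% of all genes in that fit. Leaving out single libraries gave between 4 and 30 members higher. The 30 came without knockout replicate 4, with 3 lower, where 6.87% of all genes were higher and 5.82% lower, and the 4 without wild-type replicate 1 or 2 or knockout replicate 1 or 2 of that time, where 1.96% to 2.58% were. Higher members were spread over complex I (5 of 37), complex III (1 of 8), complex IV (4 of 16) and ATP synthase (3 of 17).

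At 72 h, 33 nuclear members were higher and 7 lower in knockout cells, with 1 mitochondrial member higher and 2 lower, where 16.9% of all genes were higher and 19.5% lower (36.4% in either direction). The medians were 0.14 for nuclear members, -0.15 for mitochondrial members and -0.02 for all genes. By complex, 13 of 37 nuclear genes were higher and 2 lower in complex I, 0 and 1 of 4 in complex II, 3 and 1 of 8 in complex III, 9 and 0 of 16 in complex IV, 7 and 2 of 17 in ATP synthase, and 1 and 1 of 8 among assembly factors. Of the nuclear members, 11 were higher in knockout cells at both times and 2, Sdha and Ndufaf1, lower at both. The share of all genes called at both times was not counted. The 48 h calls of Sdha and Ndufaf1 were lost without wild-type replicate 1 of that time. The 7 lower at 72 h were Ndufa10, Ndufs1, Sdha, Uqcrc1, Atp5a1, Atp5g3 and Ndufaf1. Without both libraries that stand apart 46 members were higher and 8 lower, against 19.1% and 21.9% of all genes.

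The balance at 72 h depended on scaling. Scaling by column sums in place of trimmed means moved the median of all genes by -0.13, to -0.14, with a member median of -0.03, and then 18 of 103 members were higher and 28 lower, in place of 34 and 9, where 9.63% of all genes were higher and 31.4% lower. Removing each library's trend with exon length gave 23 members higher and 30 lower, against 16.2% and 17.4% of all genes, and 31 of the 43 calls kept their direction. With column sums the median was 0.01 for nuclear and -0.272 for mitochondrial members. With the length trend removed these medians were 0.015 and -0.337. Over genes with a mean log2 CPM of at least 3, the fold change of knockout over wild type fell with exon length: Spearman's rho across genes was -0.398 at 48 h and -0.348 at 72 h over 9283 genes, and -0.272 and -0.247 over 86 nuclear members, a description in which all points share the same libraries. The nuclear members are short, with a median exon length of 1631 bases against 4401. At 72 h, nuclear members called higher had a median of 1465 bases and those called lower 3331 bases, and the median log2 fold change of all genes was 0.24 in the 10% with the shortest exons and -0.16 in the 10% with the longest. The part of transcript length in the genotype results was otherwise not tested.

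**Figure D4:**
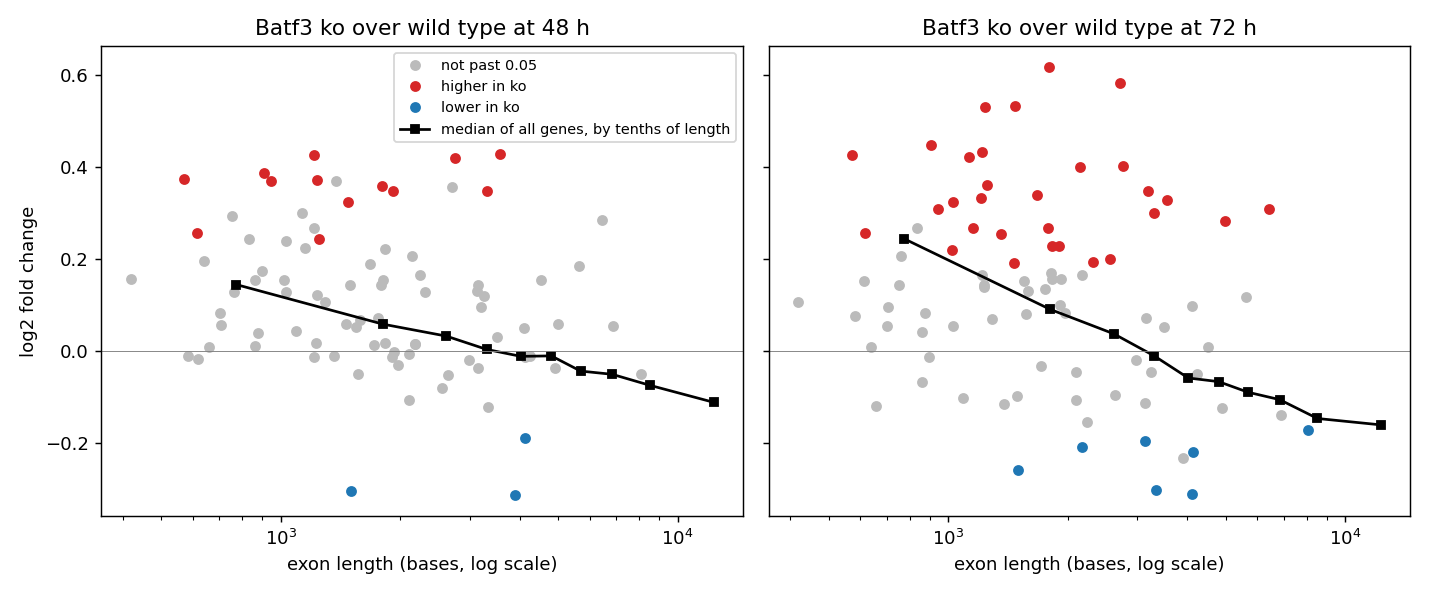
Log2 fold change of knockout over wild type against exon length (log axis) for nuclear members with a mean log2 CPM of at least 3, at 48 h and 72 h, with a line for the median of all genes in 10 bins of exon length. The line runs from 0.14 in the shortest bin to -0.11 in the longest at 48 h, and from 0.24 to -0.16 at 72 h.

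Ndufa6, an accessory subunit of the matrix arm of complex I, showed the largest rise in knockout cells at 72 h among well-expressed nuclear members. Wild-type libraries held 79.4, 77.1, 87.0 and 84.5 CPM at 48 h and 105.5, 119.0, 100.7 and 128.9 CPM at 72 h. Knockout libraries held 110.9, 108.2, 96.8 and 94.1 CPM at 48 h and 146.3, 157.3, 172.4 and 163.1 CPM at 72 h. All knockout libraries were above all wild-type libraries at each time, with log2 fold changes of 0.36 (SE 0.09, adjusted p = 0.012) and 0.62 (SE 0.09, adjusted p = 7.2e-06). Ndufb11, an X-linked membrane-arm subunit, was higher at both times (0.39, adjusted p = 0.0051, and 0.45, adjusted p = 0.00018). Ndufa2 was higher at both times (0.37 and 0.43), and lost the 48 h call when the length trend was removed (0.19, adjusted p = 0.0887). Ndufs4, a late-joining subunit whose loss causes Leigh-like disease in mice, passed at 72 h only (0.36, adjusted p = 0.072, and 0.58, adjusted p = 0.00074). Ndufa10 was lower at 72 h (-0.30, adjusted p = 0.0038).

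No complex II gene was higher in knockout cells, and Sdha was lower. It held 275.1, 260.2, 266.6 and 266.5 CPM in wild-type and 215.9, 209.6, 238.9 and 250.6 CPM in knockout libraries at 48 h. At 72 h it held 225.1, 208.4, 223.9 and 202.3 CPM and 154.0, 158.9, 152.8 and 168.1 CPM. Knockout libraries were below wild-type ones at both times without overlap, with log2 fold changes of -0.19 (SE 0.06, adjusted p = 0.035) and -0.31 (SE 0.06, adjusted p = 0.00011). The 48 h call was lost with only those groups in the fit (adjusted p = 0.0617) and with no filter (adjusted p = 0.0797). It was also lost without wild-type replicate 1 at 48 h, where 0 members and 171 of 15441 genes were lower. Sdhb, the iron-sulphur subunit, passed at neither time (0.16 and -0.15), but its time course differed between genotypes (interaction -0.32, SE 0.09, adjusted p = 0.045), narrowly, and not with median-ratio scaling (adjusted p = 0.0611) or without any 1 of 14 of the 16 libraries (adjusted p up to 0.158).

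In complex III, Uqcrh was higher in knockout cells: 323.8, 288.7, 241.6 and 247.9 CPM against 220.7, 205.1, 217.9 and 230.9 CPM at 48 h, and 321.9, 343.0, 379.7 and 348.6 CPM against 237.4, 263.9, 239.9 and 310.0 CPM at 72 h. The groups did not overlap at either time, and the log2 fold changes were 0.37 (adjusted p = 0.025) and 0.53 (adjusted p = 0.00027). Uqcrfs1 was higher (0.25, adjusted p = 0.0017) and Uqcrc1 lower (-0.22, adjusted p = 0.0019) at 72 h, and neither passed at 48 h (-0.01 each).

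In complex IV, Cox7a2l, whose levels are given above, was higher in knockout cells at both times without overlap (0.32, adjusted p = 0.0035, and 0.53, adjusted p = 1.4e-06). Its processed copy Gm6969 went the other way: it held 27.4 to 31.7 CPM in wild-type and 13.5 to 15.8 CPM in knockout libraries at 48 h, and 50.0 to 60.3 and 28.2 to 35.2 CPM at 72 h. Cox7a2l and Gm6969 summed to 207.6 ± 5.62 CPM in wild-type and 231.9 ± 16.9 CPM in knockout cells at 48 h, and to 405.0 ± 20.5 and 494.0 ± 27.6 CPM at 72 h, still without overlap. The part of misplaced reads in the Cox7a2l difference was not tested further. Cox6c and Cox7b, small membrane subunits, were higher at both times (0.43 and 0.33, and 0.42 and 0.33), and Cox8a at 72 h only (0.26, adjusted p = 0.0052), with a log2 fold change of 0.00 (adjusted p = 0.982) once the length trend was removed. The low isoforms Cox4i2, Cox6a2 and Cox7a1 were higher at 72 h (1.48, 1.02 and 0.79, adjusted p = 0.0065, 0.007 and 0.0031), each at under 4 CPM in every library. Cox6b2 went the other way at 72 h, at 7.12 to 11.3 CPM in wild-type and 5.12 to 6.56 CPM in knockout libraries, but did not pass.

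In ATP synthase, the membrane subunits Atp5md and Atp5mpl were higher at 72 h (0.40 and 0.43), and Atp5md passed at 48 h too (0.42, adjusted p = 0.041). Atp5g2 was higher (0.34, adjusted p = 0.0023) and Atp5g3 (-0.21, adjusted p = 0.017) and Atp5a1 (-0.20, adjusted p = 0.0047) lower at 72 h. Atp5b passed at neither time (-0.01 and -0.05). Of the assembly factors, Ndufaf1 was lower at both times (-0.30 and -0.26), and Ndufaf4 at 48 h (-0.31, adjusted p = 0.030) with -0.23 (adjusted p = 0.062) at 72 h. Neither 48 h call was kept without wild-type replicate 1 of that time.

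**Figure D5:**
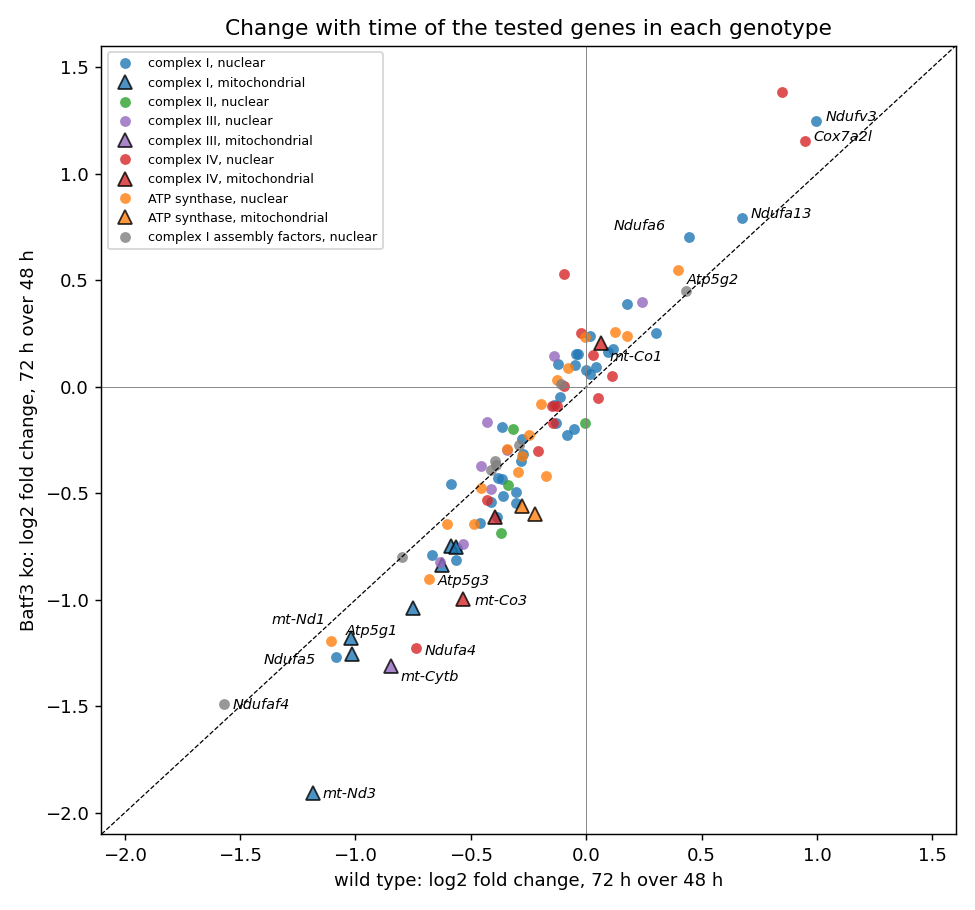
Log2 fold change from 48 h to 72 h in wild-type (x axis) against knockout cells (y axis) for tested members, mitochondrial and nuclear genes apart, with a dashed line of equality; Cox4i2 and Cox6b2 lie beyond the axes. The mitochondrial genes other than mt-Co1 lie below the line, with mt-Nd3 at -1.18 and -1.91.

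Among the 13 mitochondrial genes, a change of the genotype difference between the times passed for 2, mt-Nd3 and mt-Co3. mt-Nd3 held 224.2, 265.8, 228.1 and 213.9 CPM in wild-type and 358.4, 312.5, 325.7 and 287.8 CPM in knockout libraries at 48 h. At 72 h it held 93.9, 104.4, 94.3 and 124.6 CPM and 85.0, 84.7, 73.8 and 85.0 CPM. Knockout libraries were all higher at 48 h and all lower at 72 h, without overlap. The log2 fold changes were 0.50 (SE 0.10, adjusted p = 0.0023) and -0.22 (SE 0.10, adjusted p = 0.078), and the interaction of -0.72 (SE 0.14, adjusted p = 0.0029) passed.

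Over all genes, 2.08% had a positive and 3.53% a negative interaction (5.61% in either direction). Only 3 members passed, all negative: mt-Nd3, mt-Co3 (-0.47, SE 0.14, adjusted p = 0.048) and Sdhb, of which mt-Nd3 kept its call under each alternative run. mt-Co3 held 3088, 3780, 3420 and 3434 CPM in wild-type and 4532, 3997, 4303 and 3818 CPM in knockout libraries at 48 h, and 2152, 2328, 2234 and 2930 CPM against 1910, 2000, 1816 and 2264 CPM at 72 h. It was higher in every knockout library at 48 h (0.32, adjusted p = 0.05) and the groups overlapped at 72 h (-0.15, adjusted p = 0.25). Its interaction was lost with median-ratio scaling (adjusted p = 0.0566) and without any 1 of 11 of the 16 libraries (adjusted p up to 0.15).

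At 72 h mt-Co1 was higher in knockout cells (0.28, SE 0.09, adjusted p = 0.018) while mt-Cytb (-0.29, SE 0.10, adjusted p = 0.029) and mt-Nd4l (-0.28, SE 0.09, adjusted p = 0.012) were lower. The groups overlapped for mt-Co1 and mt-Cytb, at 1272, 1347, 1376 and 1708 CPM of mt-Cytb in wild-type and 979.5, 1031, 998.3 and 1274 CPM in knockout libraries. The mt-Co1 call was lost when libraries were scaled by column sums (0.15, adjusted p = 0.111) or the length trend was removed (0.16, adjusted p = 0.0849). Without wild-type replicate 4, the mt-Cytb difference was -0.18 (adjusted p = 0.126) and mt-Nd4l lost its call (adjusted p = 0.0551).

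Reads of some mitochondrial genes can also match copies of mitochondrial DNA in the nuclear genome. In this table the unprocessed pseudogene Gm28438 was counted at 98.35% to 99.24% of mt-Nd3, Gm28661 at 100.2% of mt-Co2 and Gm28437 at 100.1% of mt-Co3. Gm29216 was at 28.26% to 29.98% of mt-Co1 and Gm10222 at 99.82% to 99.87% of mt-Nd4l. Gm10925 was at 126.7% to 127.9% of mt-Atp6 and Gm28439 at 48.25% to 48.69% of mt-Nd4. In all, 9 such copies held 1.36% to 1.877% of all counts by group. mt-Cytb, mt-Nd1, mt-Nd6 and mt-Atp8 share none of their 50-base words with another annotated transcript. Nuclear DNA outside annotated transcripts was not searched, so copies there would be missed. Leaving the 9 copies out of totals and fit left 2 mitochondrial members higher in knockout cells at 48 h in place of 1. How reads with several matches were counted is not given in the sources used here.

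Other genes of mitochondrial respiration were taken from lists of related genes. Cycs, the electron carrier between complexes III and IV, fell with time by 0.97 and 1.19 on the log2 scale in wild-type and knockout cells, and Cyc1 by 0.81 and 0.98; neither passed for genotype at either time. Of 77 mitochondrial ribosomal protein genes, which build the machine that translates the 13 mitochondrial messages, 59 fell and 4 rose in wild-type cells and 56 fell and 8 rose in knockout cells, and at 72 h 19 were higher and 8 lower in knockout cells. For these lists too, the shares over all genes are 33.6% rising and 29.9% falling with time in wild-type cells, 34.4% and 33.6% in knockout cells, and 16.9% higher and 19.5% lower in knockout cells at 72 h. Of 20 tricarboxylic acid cycle genes, 17 fell in each genotype, with 0 rising in wild-type and 2 in knockout cells. Of 28 genes of mitochondrial DNA expression, 19 fell and 4 rose in wild-type cells and 18 and 5 in knockout cells. Polrmt, the mitochondrial RNA polymerase, fell by 0.82 and 1.34, with an interaction of -0.51 (adjusted p = 0.0233), and Lrpprc, which stabilises mitochondrial messenger RNAs, by 1.03 and 1.47, with an interaction of -0.44 (adjusted p = 0.00364). Both were lower in knockout cells at 72 h (-0.44, adjusted p = 0.0011, and -0.71, adjusted p = 1.43e-08). Among all 28 genes of that list, 5 were higher and 10 lower in knockout cells at 72 h. Their interactions passed as positive for 2 and negative for 3, against 2.08% and 3.53% of all genes.

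Of 9 regulators of mitochondrial genes, 8 fell and 1 rose with time in each genotype, and 4 were lower in knockout cells at 72 h and none higher (19.5% and 16.9% of all genes). Pprc1, a coactivator of the PGC-1 family, changed by -1.24 and -1.64 with time and by -0.62 (adjusted p = 0.000114) with genotype at 72 h. Tfam, which packages mitochondrial DNA, changed by -0.38 and -0.45 with time and by 0.03 and -0.04 with genotype. Import genes fell in 18 of 22 cases in each genotype. Assembly factors of complex IV fell in 12 of 18 in each genotype, with 4 and 3 rising.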

How the data were processed

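Poly-A RNA from 16 libraries (4 per group, 100 ng of RNA each, stranded kit per the labels' protocols) was measured by sequencing. The deposited values are raw gene counts; bcl2fastq 2.2.0, STAR 2.7, featureCounts and build GRCm38 are named in the submitters' processing notes. No label or header names the gene annotation, whether strand was used in counting, or how multiply aligned reads were treated. CPM was taken over column sums, and RPKM over union exon length from GENCODE M21 (55154 of 55335 identifiers matched). Genes passing edgeR's filterByExpr with a minimum count of 10 (15197) were scaled by TMM and fitted over all 16 libraries with edgeR 4.0.16 (R 4.3.3, robust quasi-likelihood F test), with adjusted p below 0.05 as the threshold. SE is the log2 fold change over the square root of F. The fit was tested on simulated counts. Alternatives were other scalings (library size, median-ratio factors, TMM without mitochondrial genes), DESeq2 1.42.0, limma-voom (limma 3.58.1), no filter, a minimum count of 50, only the groups compared, a replicate block, offsets for exon length, and leaving out single libraries or both distant ones. Leaving out 9 nuclear copies of mitochondrial genes was chosen after seeing the data.

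The members and lists were chosen with earlier results of these data known. Named in each comparison are the mitochondrial genes, up to 6 nuclear members called in each direction with the largest log2 fold change at a mean log2 CPM of at least 3, the highest nuclear member per kilobase in each complex, tissue isoforms, assembly factors and a few genes of related lists; further members were named after their values were seen. Left out were 12 processed pseudogenes that fit the naming, with 44886 reads in all. Sequences and promoters are from RefSeq (GRCm38.p6).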

Additional observations from a re-analysis of the deposited data

Results flagged for a closer look

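In 188 groups of 4 libraries over the named members, 13 held a library whose gap to the nearest other exceeded Dixon's critical share of the group's range; chance alone gives about 1 in 20. In wild-type cells at 48 h these were Atp5g3 in replicate 4 (366.2 CPM, next 345.5), Ndufaf1 in replicate 3 (23.45 CPM, next 25.62) and mt-Atp6 in replicate 2 (3520 CPM, next 2891). In knockout cells at 48 h they were Atp5g1, Ndufa13 and mt-Nd4 in replicate 4 (155.8, 127.0 and 1563 CPM, all the lowest of their group), Ndufaf3 in replicate 2 (14.89 CPM, next 11.71), and mt-Atp8 and mt-Co2 in replicate 1 (666.1 and 4267 CPM, both the highest). Replicate 4 of wild-type cells at 72 h had the highest mt-Nd4l, at 256.8 CPM. In knockout cells at 72 h, Uqcr10 was lowest in replicate 1 (119.9 CPM), mt-Nd3 lowest in replicate 3 (73.76 CPM) and mt-Nd6 highest in replicate 4 (308.9 CPM).

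The difference between genotypes changed from 48 h to 72 h, by the interaction term in edgeR, for mt-Nd3 (-0.723, adjusted p = 0.0029), Sdhb (-0.318, adjusted p = 0.045) and mt-Co3 (-0.465, adjusted p = 0.048). Leaving out single libraries in turn ended the call in 14 of 16 cases for Sdhb, in 11 of 16 for mt-Co3 and in 0 of 16 for mt-Nd3, and median-ratio scaling ended it for Sdhb and mt-Co3.

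Mitochondrial ribosomal RNAs, which are not members, were higher in knockout cells in 3 of 4 tests. mt-Rnr1 differed by 0.271 on the log2 scale at 48 h, which did not pass (adjusted p = 0.0796, edgeR), and by 0.756 at 72 h (adjusted p = 2.54e-06) and mt-Rnr2 by 0.506 at 48 h (adjusted p = 0.00186) and 0.897 at 72 h (adjusted p = 3.78e-07). These libraries were enriched for poly-A RNA.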

How the results depend on the processing

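Of 3789 single-gene values recomputed over 136 results, 3543 kept direction and side of the threshold, 104 lost a call, 77 gained one and 65 changed sign; the causes were not tested. At 48 h, nuclear members higher in knockout cells numbered 13, and 20 with no filter and 33 without both distant libraries. Over all genes, those called higher numbered 670, 970 and 1379 in the same order. Mitochondrial members higher numbered 1, and 2 with DESeq2, limma-voom, a minimum count of 50, only the groups compared or without the nuclear copies, 4 with no filter, 5 without both distant libraries and 0 with exon length offsets. At 72 h, nuclear members higher numbered 33 (18 with library-size scaling) and lower 7 (21 with library-size scaling, 20 with length offsets). Mitochondrial members higher numbered 1 (0 under both of these) and lower 2 (7 with library-size scaling, 5 with no filter, 10 with length offsets, 1 without both distant libraries). With time, mitochondrial members higher in wild-type cells went from 0 to 1 with length offsets. In knockout cells they went from 1 to 0 with library-size or median-ratio scaling, scaling without mitochondrial genes, DESeq2, only the groups compared, the replicate block, or without both distant libraries.

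For the interaction, positive nuclear members numbered 0, and 1 with DESeq2 and 2 without both distant libraries. Negative nuclear members numbered 1, and 6 with library-size scaling, 0 with median-ratio scaling, 3 with DESeq2, 2 with no filter, 0 with the replicate block, 2 with length offsets and 3 without both distant libraries. Negative mitochondrial members numbered 2, and 4 with library-size scaling, 1 with median-ratio scaling, 5 with no filter and 1 with the replicate block. Over all genes, negative interactions numbered 537, and 1230 with library-size scaling, 450 with median-ratio scaling and 709 with DESeq2. They numbered 699 with no filter, 429 with the replicate block, 541 with length offsets and 689 without both distant libraries. The summed level of nuclear members moved beyond 1 SD to 15680 CPM over non-mitochondrial counts in wild-type cells at 48 h, to 12540 CPM on TMM-scaled totals in wild-type cells at 72 h, and to 13780 CPM on TMM-scaled totals and 13530 CPM over non-mitochondrial counts in knockout cells at 72 h.

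Leaving out single libraries gave 3 to 27 nuclear members higher and 0 to 4 lower at 48 h, with 1 to 3 mitochondrial members higher. At 72 h it gave 0 to 1 mitochondrial members higher and 0 to 3 lower, in knockout cells with time 0 to 1 mitochondrial members higher, and for the interaction 0 to 3 nuclear members positive, 0 to 3 nuclear negative and 1 to 3 mitochondrial negative.

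Signs turned only in differences that had not passed. At 48 h these were mt-Co2 (-0.061 with length offsets), mt-Nd4l (-0.035 with library-size scaling, -0.013 with median-ratio scaling and DESeq2, -0.004 with no filter, -0.238 with length offsets), mt-Nd4 (-0.001 and -0.052 with library-size scaling and length offsets), mt-Nd5 (0.003 with a minimum count of 50, 0.062 without both distant libraries), mt-Nd6 (-0.010 and -0.164 with library-size scaling and length offsets) and Sdhd (-0.021 and -0.086 with the same), and Cox8a (0.027) and Uqcr10 (0.050) without both distant libraries. At 72 h they were mt-Nd1 (0.007 with only the groups compared), mt-Nd1, mt-Nd2, mt-Co2, mt-Atp8 and mt-Atp6 without both distant libraries (0.079, 0.021, 0.016, 0.072 and 0.102), Uqcr10 (-0.049 with library-size scaling, -0.182, adjusted p = 0.0304, with length offsets), Ndufc2 (-0.075) and Sdhd (-0.014) with length offsets. With time in wild-type cells they were mt-Co1 (-0.023 without both distant libraries) and Cox8a (0.005 with library-size scaling).

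Over single libraries left out, log2 fold changes ran at 48 h from -0.035 to 0.050 for mt-Nd4l, -0.000 to 0.093 for mt-Nd4, -0.042 to 0.062 for mt-Nd5, -0.033 to 0.111 for mt-Nd6, -0.080 to 0.033 for Cox8a, -0.033 to 0.003 for Atp5b, -0.098 to 0.050 for Uqcr10 and -0.045 to 0.083 for Sdhd. At 72 h they ran from -0.066 to 0.079 for mt-Nd1, -0.135 to 0.021 for mt-Nd2, -0.195 to 0.016 for mt-Co2, -0.169 to 0.072 for mt-Atp8 and -0.140 to 0.102 for mt-Atp6, and with time in wild-type cells from -0.023 to 0.101 for mt-Co1 and -0.062 to 0.028 for Cox8a.

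Replicate numbers did not pair the libraries: over 24 same-numbered pairs the correlation of deviations ran from -0.599 to 0.294, and 2 of 16 libraries correlated best with their own number. With the replicate block, 12 members were higher and 3 lower in knockout cells at 48 h, and 33 and 8 at 72 h. Over all genes these were 572 and 346 at 48 h, and 2491 and 2908 at 72 h. With time, 11 members rose and 57 fell in wild-type cells, and 18 and 61 in knockout cells. Over all genes these were 5060 and 4512 in wild-type cells, and 5183 and 5072 in knockout cells. In that fit 1 interaction, mt-Nd3, passed (Sdhb adjusted p = 0.0507, mt-Co3 0.0601). Depth limited Cox4i2 and Ndufa4l2, whose 48 h levels came from 4 to 7 reads per group. Cox6a2 and Cox7a1 had 144 to 175 reads per group at 48 h.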

Other observations

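Ribosomal RNAs of mitochondrial DNA had time courses of their own. Mean levels of mt-Rnr2, the large ribosomal RNA, were 813.4 CPM in wild-type and 1126 CPM in knockout cells at 48 h and 500.7 and 856.6 CPM at 72 h, and those of mt-Rnr1, the small one, were 423.4, 497.3, 441.3 and 684.6 CPM in the same order. With time, mt-Rnr2 changed by -0.72 in wild-type and -0.33 in knockout cells and mt-Rnr1 by 0.04 (adjusted p = 0.741) and 0.52 (adjusted p = 3.39e-05, edgeR). The interaction for mt-Rnr1 was 0.49 (adjusted p = 0.0329), opposite in sign to that of mt-Nd3. Of 13 mitochondrial transfer RNAs tested, 7 fell with time in each genotype, with 1 rising in wild-type cells, and none passed for genotype in edgeR at either time.

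Among other lists, 17 carriers and related genes had 3 higher and 6 lower in knockout cells at 72 h, and 19 assembly factors of the remaining complexes had 3 higher and 2 lower, where 16.9% of all genes were higher and 19.5% lower. The processed pseudogene Ndufb4c was counted at 69.13% to 69.89% of the CPM of Ndufb4, with which it shares 18.27% of the 50-base words of Ndufb4, and 74 of 95 nuclear members shared under 10% of theirs with another annotated transcript.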
